A study of Mus musculus with 48 samples.

Results

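The genes described here are 8 genes of MHC class I antigen presentation, followed through paired progenitor and monocyte cultures of 24 mouse cell clones. They are the heavy chain genes H2-K1 and H2-D1, the light chain gene B2m, the peptide transporter genes Tap1 and Tap2, the tapasin gene Tapbp, the aminopeptidase gene Erap1 and the transactivator gene Nlrc5. They were chosen by name from the 34643 rows of the expression table, without a threshold on their values. All 8 had a row and all 8 passed the filter on low values that was set for tests over all genes (a mean of at least 1 TPM).

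Class I molecules display short peptides from inside the cell to CD8 T cells and to receptors of natural killer cells. A heavy chain folds with beta-2 microglobulin in the endoplasmic reticulum, where the transporter formed by Tap1 and Tap2 delivers peptides cut by the proteasome, tapasin holds the empty heavy chain at that transporter, and the aminopeptidase Erap1 trims peptides to length. Nlrc5 is a nuclear protein that activates the promoters of class I genes, and interferons raise the transcription of the whole set in most cell types, myeloid cells included.

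RNA was sequenced from ER-Hoxb8 cells, bone marrow progenitors of the mouse that are kept dividing by Hoxb8 joined to the hormone-binding domain of the estrogen receptor. Each clone gave 1 library of granulocyte-monocyte progenitors, titled Plus (here progenitor, n = 24), and 1 of monocytic cells, titled Minus (here monocyte, n = 24). All cells carry the same transgene, and the labels give RPMI medium with serum and SCF for every library, so no group lacks either. The sources used here do not state the strain, the age and number of animals, the step that turned progenitors into monocytes or the meaning of Plus and Minus. A clone is a separate culture, but how many animals the clones came from is unknown, so p-values measure the spread between clones.

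Values are TPM, a transcript abundance corrected for length and scaled to the library, which can be compared between genes of a library but keep no depth. Libraries held 8240 to 11030 genes at 1 TPM or more among progenitors and 9436 to 10717 among monocytes. Marker sums differed between the states, without overlap for the monocyte markers and with some overlap for the progenitor markers. The 6 progenitor markers, such as Kit and Cd34, summed to 226 to 1292 TPM in progenitors and to 11.2 to 334 TPM in monocytes. The 8 monocyte markers summed to 64.6 to 1329 TPM in progenitors and to 2127 to 20523 TPM in monocytes (median 11872 TPM). Lyz2 alone averaged 9113 TPM in monocytes. Of the 8 monocyte markers 7 rose, and Ccr2 fell by 0.97 on the log2 scale, in 20 of 24 clones. The 8 neutrophil markers were more abundant still in the libraries labelled monocyte, with a median sum of 73773 TPM (up to 183060 TPM) against 1326.5 TPM in progenitors. Of these 7 rose, with a median log2 fold change of 7.67 over the list against 4.18 for the monocyte markers, and their part in the state differences of the class I genes was not tested. Mast cell and basophil markers had a median sum of 1413 TPM (up to 2955 TPM) in progenitors and 51.6 TPM (up to 2065 TPM) in monocytes. Eosinophil markers had one of 0.886 TPM (up to 129 TPM) in progenitors and 118 TPM (up to 1155 TPM) in monocytes. The part of either in the class I levels was not tested. Lymphoid markers summed to at most 6.04 TPM, with Cd3e at 0 in every library, and dendritic cell markers to at most 15 TPM. Clones 1 to 13 (n = 13) and 15 to 26 (n = 11) stood apart in the data, with mitochondrial transcripts at 5.73% ± 1.44 and 11.96% ± 2.06 of TPM in progenitors (SD). The labels name no batch, and values within both sets are given for the 8 genes and for gene lists whose medians changed side. Progenitor clones 21 and 24 and monocyte clones 19 and 26 stood apart in genes detected, markers or mitochondrial share, and monocyte clone 15 in interferon-stimulated genes. In these bulk cultures fewer cells of a type and less RNA per cell cannot be told apart.

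Of the 8 genes, 5 lie in the MHC region of chromosome 17 of mm10 (GENCODE M21), within 1.35 Mb. Tapbp runs from 33915899 to 33929292 on the plus strand, H2-K1 from 33996017 to 34000347 on the minus strand, Tap1 from 34187553 to 34197225, Tap2 from 34203527 to 34216321 and H2-D1 from 35262730 to 35267499, the last 3 on the plus strand. The immunoproteasome gene Psmb8 (34197721 to 34201454) lies between Tap1 and Tap2. B2m is on chromosome 2 (122147686 to 122153083), Nlrc5 on chromosome 8 (94434356 to 94527272) and Erap1 on chromosome 13 (74639568 to 74693201), all on the plus strand. All 8 are annotated as protein-coding.

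Promoters are shown for the light chain and a heavy chain because the class I promoter is where Nlrc5 and interferon act. Of the 8 genes, 6 had an entry in the RefSeq promoter table (GRCm38.p6, the assembly of mm10), and Tap2 and Nlrc5 had none. The first sequence is chr2:122147437-122147685 on the plus strand, 250 to 2 bases before the B2m start. The second is chr17:34000348-34000597 on the minus strand, 250 to 1 bases before the H2-K1 start. Both read 5′ to 3′. Capitals mark matches on either strand to CCAAT, the motif of NF-Y, to the core of interferon response elements (GAAA, any 2 bases, GAAA), to a kappa B-like motif (GGG, any 2 bases, T, any 2 bases, CC) or to the interferon consensus of class I genes (GAA, any base, TGAAAC). Matches of different motifs did not overlap in these windows.
B2m: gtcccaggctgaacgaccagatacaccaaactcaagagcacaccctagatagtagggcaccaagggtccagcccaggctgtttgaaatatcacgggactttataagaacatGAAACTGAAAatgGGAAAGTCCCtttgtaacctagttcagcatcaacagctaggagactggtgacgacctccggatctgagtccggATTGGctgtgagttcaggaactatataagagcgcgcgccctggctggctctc
H2-K1: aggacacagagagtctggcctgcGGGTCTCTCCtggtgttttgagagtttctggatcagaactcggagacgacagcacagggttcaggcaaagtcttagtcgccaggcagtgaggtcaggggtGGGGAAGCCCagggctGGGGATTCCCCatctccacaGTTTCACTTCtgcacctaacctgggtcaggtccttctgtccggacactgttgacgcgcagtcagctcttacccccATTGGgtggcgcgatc

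H2-K1 and H2-D1 share a 30-base stretch that joins the kappa B-like match to the interferon consensus. It lies at chr17:34000429-34000458 (minus strand, 111 to 82 bases upstream) in H2-K1 and at chr17:35262923-35262952 (plus strand, 171 to 142 bases upstream of the RefSeq start) in H2-D1. The copies differ by 1 substitution, A18T, with the H2-K1 base first and positions counted from the 5′ end.
H2-K1 element: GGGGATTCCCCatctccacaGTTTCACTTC
H2-D1 element: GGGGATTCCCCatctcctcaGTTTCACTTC

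Over the 250 bases before the start, the interferon consensus of class I genes, searched after the sequences had been seen, was found in 0.344% of 32536 distinct promoters and, of the 6 genes, in H2-K1 and H2-D1. The interferon response core was found in 2.98% of promoters and in B2m, and the kappa B-like motif in 15.96% and in B2m, H2-D1 and H2-K1. TGACG, the core of the X2 box to which the Nlrc5 complex is recruited, was found in 17.9% of promoters and in B2m, H2-D1, H2-K1 and Tap1. CCAAT was in 33.8% of promoters and in all of the 6 but Erap1. These matches describe the letters of the windows only.

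The first comparison asked how the class I genes differed between the states, progenitor against monocyte, within a clone. Monocytes held more H2-D1 and Tapbp transcript and less Tap1, Tap2 and Erap1, while H2-K1, B2m and Nlrc5 did not pass the test over all clones. Thus 2 of the 8 rose and 3 fell by limma with clone as a block (Benjamini-Hochberg adjusted p under 0.05 over 11072 genes). Of all genes 68.8% passed, 32.4% higher and 36.5% lower in monocytes, so a call alone does not set these genes apart. Their median log2 fold change was -0.37, against -0.06 for all genes. It was 0.05 within clones 1 to 13, where all genes had 0.08, and -0.63 within clones 15 to 26, where all genes had -0.22. Each log2 fold change is the monocyte minus the progenitor value of log2(TPM + 1), a scale on which fold changes understate the change of low genes.

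**Figure D1:**
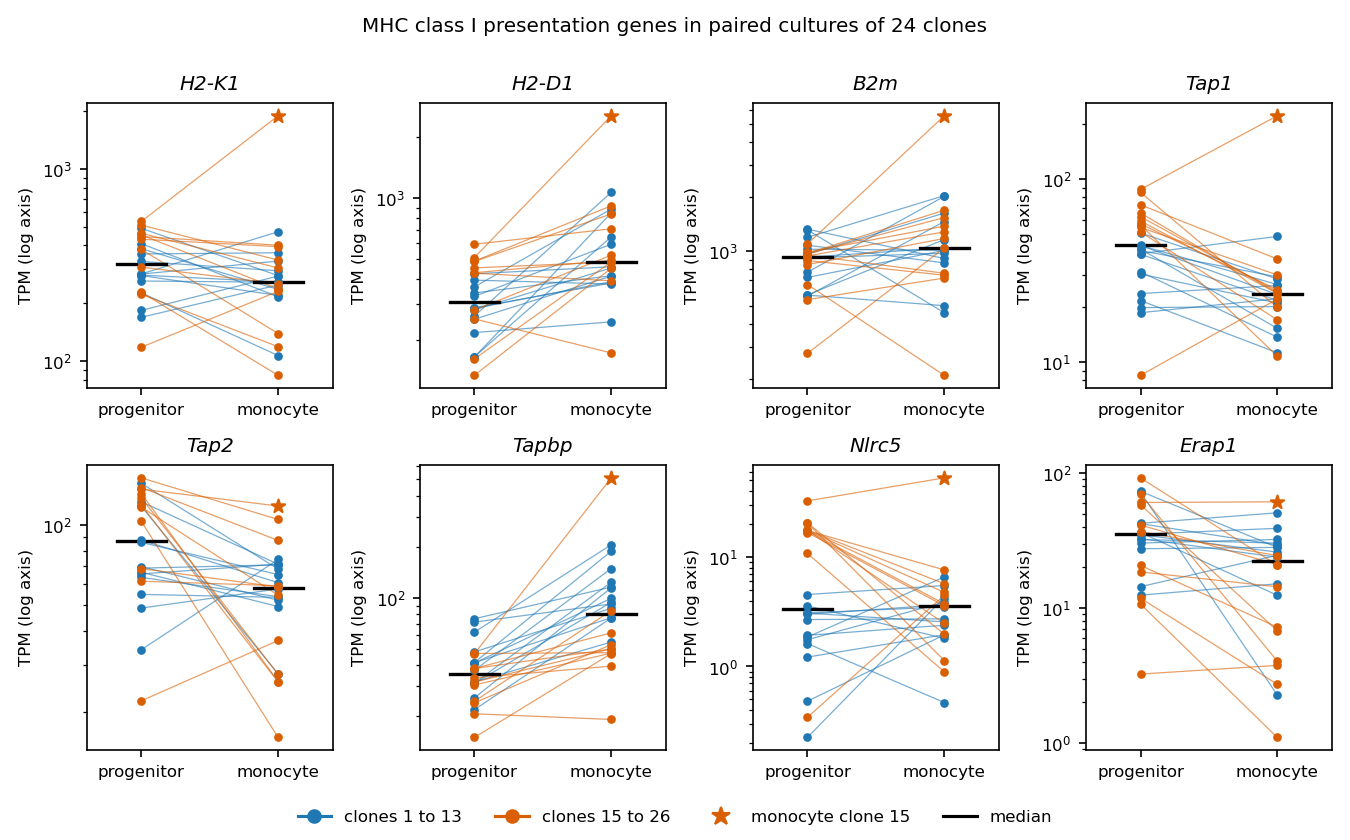
Level of each class I gene (TPM, log axis) in the progenitor and the monocyte culture of each clone, with lines joining the cultures of a clone, colours for the sets of clones, black bars for medians and a star for monocyte clone 15. H2-D1 and Tapbp lines run mostly upward and Tap1, Tap2 and Erap1 lines mostly downward, and monocyte clone 15 is the highest monocyte in all 8 panels.

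H2-K1 encodes the classical class I heavy chain K. It ran from 118 TPM (clone 24) over a median of 319 TPM to 533 TPM (clone 15) in progenitors, and from 84.3 TPM (clone 19) over a median of 257 TPM to 1890.3 TPM (clone 15) in monocytes. The ranges overlapped, and 21 of 24 monocytes lay within the progenitor range. Means were 335 ± 116 and 331 ± 345 TPM (SD, n = 24 each), with a log2 fold change of -0.24 (SE 0.16, limma adjusted p = 0.176) and lower levels in monocytes in 17 of 24 clones. Neither set passed alone, with -0.16 in clones 1 to 13 (limma adjusted p = 0.378) and -0.34 in clones 15 to 26 (limma adjusted p = 0.344). Without clone 15 the fall passed (-0.33, limma adjusted p = 0.0387). It also passed after mitochondrial genes, Gm genes and pseudogenes had been removed and each library scaled anew (-0.50, limma adjusted p = 0.00520). The median of all genes was then -0.25.

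H2-D1 encodes the other classical heavy chain, D. It ran from 134 TPM (clone 24) over a median of 309 TPM to 594 TPM (clone 26) in progenitors, and from 173 TPM (clone 19) over a median of 485 TPM to 2558 TPM (clone 15) in monocytes. The groups overlapped, with 15 of 24 monocytes inside the progenitor range, but 21 of 24 clones had more H2-D1 as monocytes. Progenitors averaged 333 ± 125 TPM and monocytes 634 ± 467 TPM (SD, n = 24 each), and H2-D1 rose by 0.80 on the log2 scale (SE 0.16, limma adjusted p = 8.00e-05). It rose in both sets of clones, by 0.86 in the first (clones 1 to 13) and by 0.74 in the second (clones 15 to 26).

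The ratio of the heavy chains differed between states within every clone, and no test was run on ratios. H2-D1 divided by H2-K1 was 0.993 ± 0.116 in progenitors (SD, n = 24), from 0.724 in clone 21 over a median of 0.974 to 1.31 in clone 26. In monocytes it was 2.14 ± 0.726, from 1.21 in clone 17 over a median of 2.03 to 4.09 in clone 21. The ratio was higher in the monocyte of all 24 clones, 13 in the first set and 11 in the second, although the ranges just overlapped between 1.21 and 1.31. Monocyte clone 15, with the most transcript of both genes, had a ratio of 1.35, the low end of the monocytes and just above the highest progenitor. Of the 31-base words in H2-K1 transcripts 11.1% also occur in H2-D1 transcripts, and 13.8% the other way, so part of the reads cannot be told apart. Heavy chains also vary between mouse strains, and with the strain not given the match of these cells to the reference alleles was not tested.

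**Figure D2:**
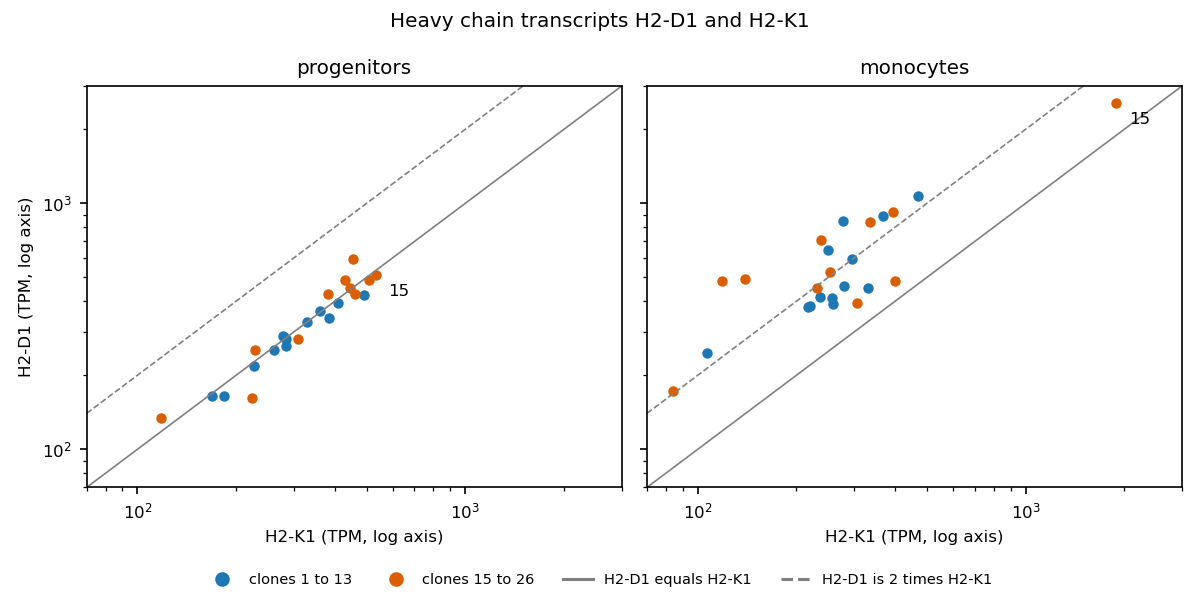
H2-D1 against H2-K1 (TPM, log axes) in progenitors (left) and monocytes (right), 1 point per clone, with lines where H2-D1 equals H2-K1 (solid) and is 2 times H2-K1 (dashed). Progenitor points lie along the solid line, with ratios from 0.724 to 1.31, and every monocyte point lies above it, with ratios from 1.21 to 4.09.

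Summed over 32 class I heavy chain rows, progenitors held 877 ± 363 TPM and monocytes 1154 ± 1054 TPM (SD, n = 24 each). The sum did not pass (log2 fold change 0.27, SE 0.15, limma adjusted p = 0.125), and H2-K1 with H2-D1 made up a median of 81.8% of it in progenitors and 85.2% in monocytes.

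B2m encodes beta-2 microglobulin, the light chain of all class I molecules, and was the most abundant of the 8 in every library. It ran from 275 TPM (clone 24) over a median of 937 TPM to 1324 TPM (clone 4) in progenitors, and from 208 TPM (clone 19) over a median of 1044 TPM to 5560.4 TPM (clone 15) in monocytes. The highest monocytes lay above all progenitors, and 15 of 24 lay within their range. Means were 879 ± 255 and 1297 ± 1017 TPM (SD, n = 24 each), and the log2 fold change of 0.36 (SE 0.18, limma adjusted p = 0.0762, higher in 16 of 24 clones) did not pass. Neither set passed alone, with 0.26 in clones 1 to 13 (limma adjusted p = 0.261) and 0.48 in clones 15 to 26 (limma adjusted p = 0.197). The change of B2m passed with median-ratio scaling of the libraries (0.39, limma adjusted p = 0.0266). It did not pass without clone 15 (0.27, limma adjusted p = 0.150). Nor did it with mitochondrial, Gm and pseudogene entries left out (0.10, limma adjusted p = 0.592, with the median of all genes at -0.25). Set against the heavy chains, B2m divided by the sum of H2-K1 and H2-D1 was 1.38 ± 0.370 in progenitors and 1.35 ± 0.266 in monocytes (SD, n = 24 each), higher in monocytes in 16 of 24 clones.

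Tap1 and Tap2 encode the subunits of the transporter that moves peptides into the endoplasmic reticulum. Tap1 ran from 8.47 TPM (clone 24) over a median of 43.4 TPM to 87.9 TPM (clone 15) in progenitors, and from 10.8 TPM (clone 19) over a median of 23.6 TPM to 222 TPM (clone 15) in monocytes. Apart from monocyte clone 15 no monocyte exceeded 48.7 TPM, and 23 of 24 lay within the progenitor range. Tap1 went from 46.0 ± 20.5 to 31.8 ± 41.4 TPM (SD, n = 24 each) and fell by 0.71 on the log2 scale (SE 0.18, limma adjusted p = 0.000917), in 18 of 24 clones. Both sets passed, with log2 fold changes of -0.53 (clones 1 to 13) and -0.93 (clones 15 to 26).

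Tap2 ran from 21.99 TPM (clone 24) over a median of 86.9 TPM to 150.1 TPM (clone 17) in progenitors, and from 16.04 TPM (clone 19) over a median of 58.1 TPM to 118 TPM (clone 15) in monocytes. Here too 23 of 24 monocytes lay within the progenitor range, most of them below the progenitor median. Tap2 went from 91.7 ± 37.3 to 58.0 ± 24.5 TPM (SD, n = 24 each) and fell by 0.65 on the log2 scale (SE 0.19, limma adjusted p = 0.00371), in 19 of 24 clones. Within clones 15 to 26 it fell by 1.02 (limma adjusted p = 0.0152), and within clones 1 to 13 the value was -0.34 (limma adjusted p = 0.124). The test of the difference between the sets did not pass (limma adjusted p = 0.218).

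Within the transporter the balance of the subunits moved either way from clone to clone. Tap1 divided by Tap2 was 0.509 ± 0.143 in progenitors and 0.546 ± 0.368 in monocytes (SD, n = 24 each), higher in 12 of 24 clones. It changed between states by over 1.5-fold in 12 clones, upward in 5 and downward in 7. Monocyte clone 15 had the highest ratio, 1.89, against a monocyte median of 0.425.

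Tapbp encodes tapasin, the bridge between the transporter and the empty heavy chain. It ran from 15.01 TPM (clone 24) over a median of 35.5 TPM to 75.2 TPM (clone 6) in progenitors, and from 19.2 TPM (clone 19) over a median of 80.2 TPM to 509.8 TPM (clone 15) in monocytes. Of the 24 monocytes 10 lay within the progenitor range and the others above it, the least overlap among the 8 genes. Progenitors averaged 38.0 ± 15.2 TPM and monocytes 104 ± 97.99 TPM (SD, n = 24 each). Tapbp rose by 1.17 on the log2 scale (SE 0.17, limma adjusted p = 5.81e-07) and was higher in 23 of 24 clones. Of all genes, 21.8% were higher in monocytes in at least 20 of 24 clones. The rise held in clones 1 to 13 (1.37) and in clones 15 to 26 (0.93).

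Tapasin and the transporter therefore moved in opposite directions. Tapbp divided by Tap1, a ratio taken after the values were seen, was 0.986 ± 0.494 in progenitors (0.368 to 1.91) and 4.13 ± 3.69 in monocytes (1.66 to 16.7), and it was higher in the monocyte of 24 of 24 clones.

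Erap1 encodes the aminopeptidase that trims peptides in the endoplasmic reticulum. It ran from 3.24 TPM (clone 21) over a median of 35.0 TPM to 92.0 TPM (clone 22) in progenitors, and from 1.10 TPM (clone 19) over a median of 22.4 TPM to 61.2 TPM (clone 15) in monocytes. The groups overlapped widely, with 21 of 24 monocytes within the progenitor range. Erap1 went from 37.9 ± 22.9 to 21.2 ± 15.4 TPM (SD, n = 24 each) and fell by 0.98 on the log2 scale (SE 0.26, limma adjusted p = 0.00170), in 16 of 24 clones. The value was -0.56 within clones 1 to 13 (limma adjusted p = 0.144) and -1.47 within clones 15 to 26 (limma adjusted p = 0.00321). The difference between the sets did not pass (limma adjusted p = 0.231).

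**Figure D3:**
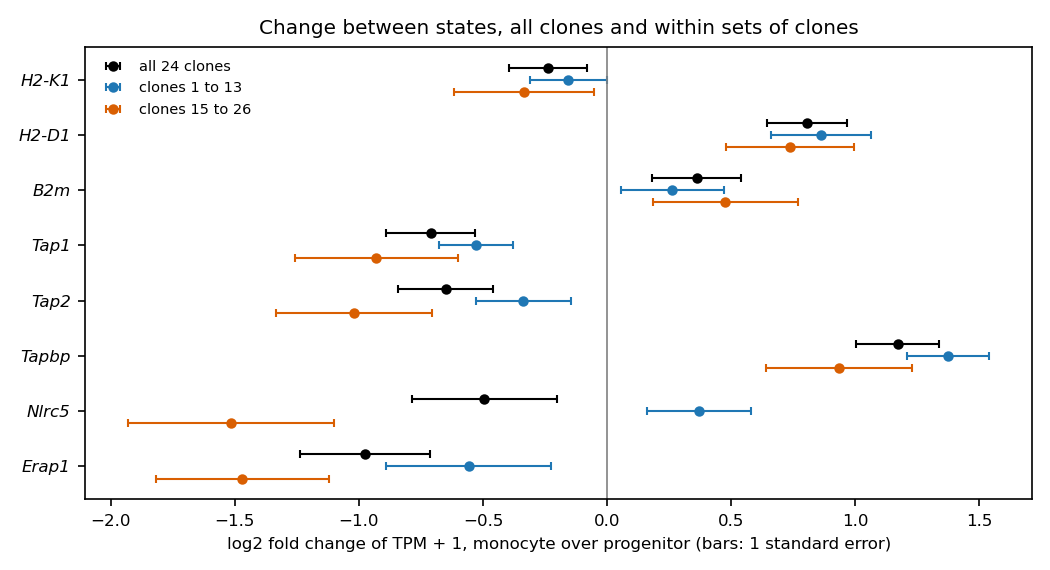
Log2 fold change of TPM + 1 between states (monocyte over progenitor) for each class I gene over all clones (black), clones 1 to 13 (blue) and clones 15 to 26 (orange), with bars of 1 standard error. Both sets lie on the same side of 0 for every gene but Nlrc5, at 0.37 and -1.52.

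Nlrc5, the transactivator, had the lowest mean level of the 8 in both states. Of the 8 genes it was the one whose progenitor level and state change differed most between the sets of clones. In progenitors of clones 1 to 13 it ran from 0.225 TPM (clone 5) over a median of 1.93 TPM to 4.54 TPM (clone 8). In progenitors of clones 15 to 26 it ran from 0.344 TPM (clone 24) over a median of 17.4 TPM to 32.5 TPM (clone 15). Apart from clone 24, whose progenitor was the lowest in 6 of the 8 genes, every progenitor of the second set was above every progenitor of the first. In monocytes the sets overlapped, with medians of 2.72 and 3.73 TPM, and 23 of 24 monocytes lay between 0.469 TPM (clone 9) and 7.62 TPM (clone 17) while clone 15 had 52.8 TPM.

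Over all clones Nlrc5 went from 9.06 ± 9.14 to 5.43 ± 10.2 TPM (SD, n = 24 each), with a log2 fold change of -0.49 (SE 0.29, limma adjusted p = 0.134), lower in 12 and higher in 12 clones. Without clone 15 the monocyte mean was 3.37 TPM. Within clones 15 to 26 it fell by 1.52 (limma adjusted p = 0.00780, in 9 of 11 clones), and within clones 1 to 13 the value was 0.37 (limma adjusted p = 0.124, higher in 10 of 13). The difference between the sets was -1.89 (SE 0.47, limma interaction adjusted p = 0.0118), where the median of all genes was -0.29. Among all genes 11.5% had such a difference (184 positive and 1084 negative, and 962 and 1005 with median-ratio scaling), and Nlrc5 was the 1 of the 8 that did. The adjusted p of the other genes ran from 0.218 to 0.834.

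The sets were then compared within each state, a test added after the values were seen. In progenitors Nlrc5 was 2.34 higher on the log2 scale in clones 15 to 26 (SE 0.37, limma adjusted p = 3.36e-05) and Tap1 was 0.70 higher (SE 0.27, limma adjusted p = 0.0389), and the other 6 genes did not pass. Of all genes 39.4% differed between the sets in progenitors, 3157 higher and 1205 lower in clones 15 to 26, with a median of 0.22. Without clone 15 the call of Tap1 was lost (0.63, limma adjusted p = 0.0732) and that of Nlrc5 was not (2.22), where 34.8% of all genes passed. Without clones 19, 21, 24 and 26 H2-D1 (0.63), H2-K1 (0.57) and Tap2 (0.68) were also higher in the second set by limma (adjusted p from 0.00299 to 0.0104), where 68.9% of all genes passed and their median was 0.46. With median-ratio scaling the median of all genes was -0.06 and 52.7% passed, 2545 higher and 3253 lower. On that scale Tapbp (-0.74, limma adjusted p = 3.53e-05) and B2m (-0.51, limma adjusted p = 0.00178) were lower in the second set, and Nlrc5 (1.99) and Tap1 (0.37) higher.

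In monocytes no class I gene differed between the sets over all clones, where 7.11% of all genes did. The largest values were those of Erap1 (-1.19, limma adjusted p = 0.127) and Tapbp (-0.84, limma adjusted p = 0.130), and Nlrc5 was at 0.45 (limma adjusted p = 0.519). Without clone 15 Tapbp (-1.15, limma adjusted p = 0.00206) and Erap1 (-1.45, limma adjusted p = 0.0424) were lower in the second set, where 7.98% of all genes passed. With median-ratio scaling Erap1 passed (-1.21, limma adjusted p = 0.0373), beside 12.2% of all genes, and without clones 19, 21, 24 and 26 none of the 8 did, beside 5.89%. Mitochondrial transcripts took a larger share of progenitor TPM in the second set. The comparison was also run with mitochondrial, Gm and pseudogene entries left out. In progenitors Nlrc5 (2.61, limma adjusted p = 2.28e-05) and Tap1 (0.82, limma adjusted p = 0.00650) were then higher in the second set. The other class I genes did not pass there, where 5174 of 10478 genes did. In monocytes no class I gene passed, where 1171 genes did. Any further part of the mitochondrial share was not tested.

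Ordered by mean level, progenitors held B2m, then H2-K1 and H2-D1 at the same level within their spread, then Tap2, Tap1, Tapbp, Erap1 and Nlrc5. The neighbours H2-K1 and H2-D1 stood in this order in 15 of 24 libraries, Tap1 and Tapbp in 14 and Tapbp and Erap1 in 15, and none of these pairs differed beyond 1 SD. Tap2 was above Tap1 in 24 of 24 libraries. In monocytes the order was B2m, H2-D1, H2-K1, Tapbp, Tap2, Tap1, Erap1 and Nlrc5. Although clone 15 widened every SD there, B2m was above H2-D1, H2-D1 above H2-K1 and H2-K1 above Tapbp in 24 of 24 monocytes, and Tapbp was above Tap2 in 20. Together the 8 genes took 0.0593 to 0.251% of progenitor TPM (median 0.188%) and 0.0515 to 1.10% of monocyte TPM (median 0.197%).

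The rest of the pathway was read from gene lists of the same fit, each against the 68.8% of all genes called and their median of -0.06. Of 14 measured further heavy chain genes (class Ib and class I-like), 6 rose and 5 fell, with a median of -0.06. H2-T24 rose by 2.87 on the log2 scale, from 0.669 ± 0.497 TPM to 15.001 ± 19.1 TPM. Fcgrt, the neonatal Fc receptor that carries IgG and albumin, rose by 2.18, from a mean of 0.869 TPM to one of 11.1 TPM. H2-Q5 fell by 2.15, from 109 ± 115 to 32.5 ± 91.2 TPM. The H2-Q and H2-T genes have close copies, so their single values are uncertain.

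Chaperones of heavy chain folding mostly fell. Of 9 measured loading chaperones 6 fell and 1 rose, with a median of -0.76. Calr, the chaperone calreticulin of the loading complex, averaged 807 ± 189 TPM in progenitors and 304 ± 157 TPM in monocytes (-1.58 on the log2 scale, SE 0.17, limma adjusted p = 4.67e-09) and was lower in 23 of 24 clones. The disulfide isomerases Pdia4 and Pdia6 fell by 1.52 and 1.11 on the log2 scale. Tapbpl, a tapasin-like editor of peptides, was the 1 that rose (0.39).

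Proteasome genes went both ways. Of 6 genes of the immunoproteasome and its PA28 activator 2 rose and 2 fell, with a median of 0.03. Within clones 1 to 13 the median was -0.24 (1 rose and 3 fell) and within clones 15 to 26 it was 0.33 (1 rose and none fell). Psmb9 and Psmb8, the catalytic immunosubunits encoded beside Tap1, fell by 0.49 and 0.46 on the log2 scale, each in 21 of 24 clones. Psme2b, a PA28 gene with a near-identical copy in Psme2, rose from 0.202 ± 0.247 to 4.91 ± 6.79 TPM, and is uncertain for that reason. Among 6 genes of the constitutive proteasome and its regulators 2 rose and 2 fell, with a median of -0.16, among them the catalytic subunits Psmb7 (-0.41) and Psmb6 (0.40) and the PA28 gamma activator Psme3 (-0.61).

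Peptidases of the cytosol and endosomes, which destroy or trim peptides, went both ways. Of 8 measured, 3 rose and 4 fell, with a median of -0.23. Thop1, thimet oligopeptidase, changed by -1.82 and the leucine aminopeptidase Lap3 by -1.47, while the puromycin-sensitive aminopeptidase Npepps went from 17.6 ± 9.94 to 55.9 ± 21.6 TPM (1.75), higher in 24 of 24 clones. For cross-presentation and class I trafficking 5 of 10 genes rose and 3 fell, with a median of 0.43, led by Cybb, the catalytic subunit of the phagocyte oxidase (5.34), Susd6 (1.48) and the vesicle GTPase Rab27a (1.31).

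Regulators and interferon genes rose more often than they fell. Of 24 measured transcription regulators of class I genes 11 rose and 4 fell, with a median of 0.43. Within clones 1 to 13, 14 rose and 2 fell (median 0.79), and within clones 15 to 26, 9 rose and 4 fell (median 0.01). Irf8, a myeloid interferon regulatory factor, rose by 2.47 on the log2 scale, from 5.17 ± 4.43 to 38.7 ± 27.9 TPM. The NF-kB subunit Relb rose by 1.76, from 1.14 ± 1.31 to 5.96 ± 2.82 TPM. Of 9 interferon receptor and signalling genes 8 rose and 1 fell, with a median of 0.80, and within clones 15 to 26 alone 3 rose and none fell. Among them were the interferon gamma receptor chain Ifngr2 at 2.52, the feedback inhibitor Socs3 at 1.69 and the kinase Jak1 at 1.17. Of 20 interferon-stimulated genes 18 rose and none fell, with Irf7 at 3.70, Isg15 at 3.14 and Cxcl10 at 3.13. Their median was 1.70. The filter on mean TPM lets in genes that are high in few libraries, and without clone 15 it left 15 of these genes, all 15 higher in monocytes. Ifng was listed at 0 in all 48 libraries. Of 8 measured class II pathway genes 4 rose and 4 fell, with a median of 0.16 (-0.23 within clones 1 to 13 and 0.61 within clones 15 to 26), led by the protease Ctss (5.96), the invariant chain Cd74 (3.75) and H2-Ob (-1.89).

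The monocyte of clone 15 held the highest level of all 8 class I genes among monocytes. It had 1890.3 TPM of H2-K1, 2558 TPM of H2-D1 and 5560.4 TPM of B2m, where the next highest monocytes had 471, 1070.5 and 2024 TPM. Tap1 stood at 222 TPM against a next highest 48.7, Tapbp at 509.8 against 205 and Nlrc5 at 52.8 against 7.62 TPM. Tap2 (118 against 105 TPM) and Erap1 (61.2 against 50.7 TPM) were barely above the next clone. Of the 11008 genes that pass the filter on mean TPM without clone 15, 15.6% were highest in this monocyte. So were all 15 interferon-stimulated genes that pass it, with Irf7 at 1948 TPM against at most 118 TPM elsewhere, as were 6 of 6 immunoproteasome and PA28 genes and 11 of 14 further heavy chain genes.

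Ifnb1, the gene of interferon beta, was at 4.10 TPM in this monocyte, at most 0.873 TPM in the other monocytes and listed at 0 in 35 of the 48 libraries. The progenitor of clone 15 was the highest for H2-K1, Tap1 and Nlrc5, 3 of the 8, where 5.36% of all genes were, and held 2.02 TPM of Irf7, within the progenitor range. Its lymphoid marker sum was 1.75 TPM, and that of the monocyte 6.04 TPM, the highest, with 5.49 TPM of Cd4 in it.

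The next comparison asked which class I genes rose and fell together from clone to clone within a state, by Pearson correlation of log2(TPM + 1) over 24 clones with a two-sided permutation test of 100000 pairings. P-values were adjusted over the 8 genes paired with all genes in both states. In monocytes 20 of 28 pairs of class I genes passed, all positive, with a median r of 0.62, where 23.6% of all pairings of these genes with any gene passed with a positive r and the median was 0.23. Without clone 15 the number was 11, against 22% of all pairings, and with median-ratio scaling of the libraries it was 13, against 7.72%. In progenitors 20 of 28 passed too, but there 52.9% of all pairings passed with a positive r. Without clone 15 the number was 19, against 50%, and with median-ratio scaling it was 6, of which 4 had a positive r, against 20.9% with an r of either sign, so the progenitor count is not a result about these genes.

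**Figure D4:**
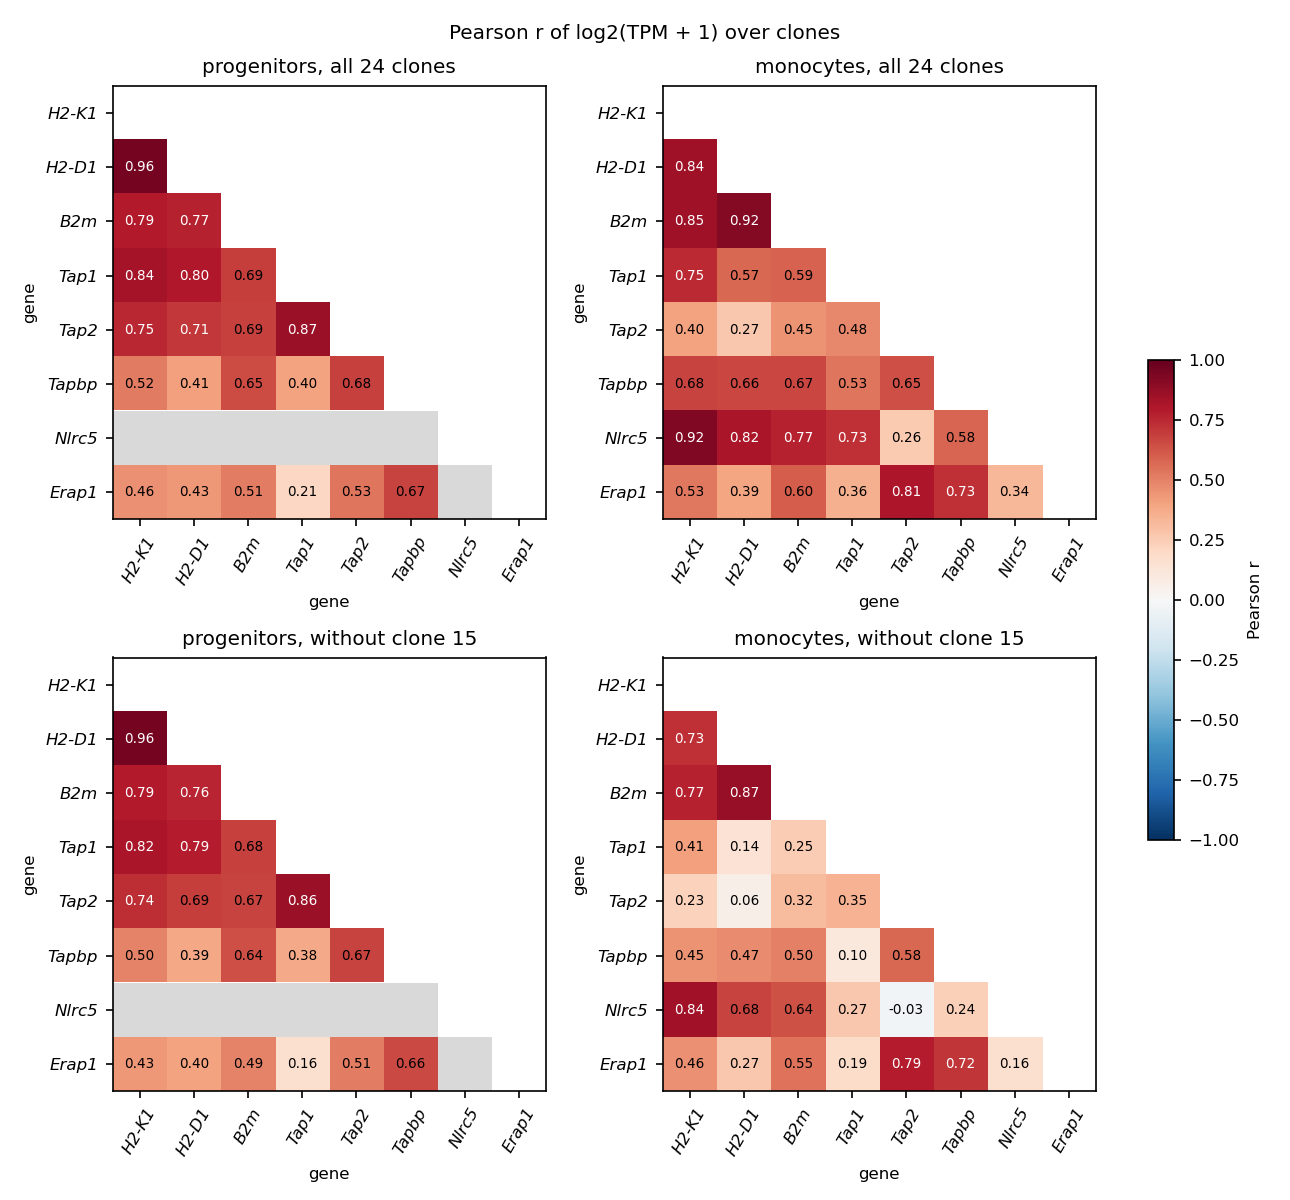
Pearson r of log2(TPM + 1) for each pair of class I genes in progenitors (left) and monocytes (right), over all clones (top) and without clone 15 (bottom), on a colour scale from -1 to 1. Grey marks progenitor pairs with Nlrc5, which has separate levels in the sets of clones, and in monocytes without clone 15 H2-K1, H2-D1, B2m and Nlrc5 keep r of 0.64 to 0.87.

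In monocytes the 6 pairs among the heavy chains, the light chain and Nlrc5 passed with and without clone 15. Within clones 1 to 13 alone the calls of B2m with Nlrc5 (r = 0.475, permutation adjusted p = 0.212) and of H2-K1 with B2m (r = 0.633, permutation adjusted p = 0.0750) were lost, and without clones 15 and 19 B2m with Nlrc5 had r = 0.566. Nlrc5 and H2-K1 had r = 0.924 (rho = 0.776, permutation p = 1e-05 and 2e-05, adjusted p = 0.000167), the smallest p that 100000 pairings give being 1e-05. The r was 0.912 within clones 1 to 13, 0.950 within clones 15 to 26, 0.842 without clone 15 and 0.822 without the 2 clones farthest from the median (15 and 19). H2-D1 and B2m had r = 0.917 (rho = 0.824, both permutation p = 1e-05, adjusted p = 0.000167), with 0.824 and 0.966 within the sets and 0.817 without the 2 farthest clones. H2-K1 and H2-D1 had r = 0.844 (rho = 0.658, permutation p = 1e-05 and 0.00049, adjusted p = 0.000167), with 0.822 and 0.872 within the sets and 0.620 without the 2 farthest clones. A higher level of the transactivator thus went with a higher level of the heavy chain in both sets of monocytes.

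**Figure D5:**
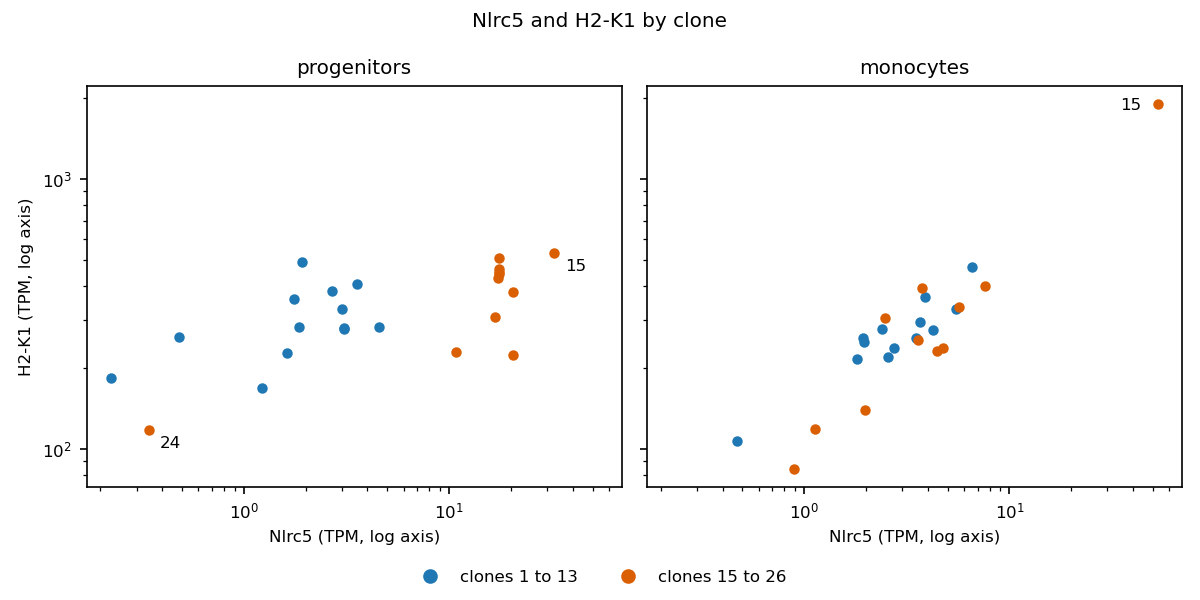
H2-K1 against Nlrc5 (TPM, log axes), 1 point per clone, in progenitors (left) and monocytes (right). In monocytes the points of both sets lie along 1 line from clone 9 and clone 19 at the lower left to clone 15 at the upper right, and in progenitors Nlrc5 of clones 15 to 26 lies apart at 10.8 to 32.5 TPM except in clone 24.

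Tap1 did not hold to these genes without clone 15. With Nlrc5 in monocytes it had r = 0.730 (rho = 0.288, permutation p = 0.00456 and 0.173, adjusted p = 0.0155), which rested on clone 15, since r was 0.266 without it, 0.121 without clones 15 and 19, -0.10 within clones 1 to 13 and 0.939 within clones 15 to 26. Tap2 went with Erap1 instead (r = 0.809, rho = 0.626, permutation p = 1e-05 and 0.00151, adjusted p = 0.000167), with 0.791 and 0.846 within the sets, 0.786 without clone 15 and 0.715 without the 2 farthest clones. Tapbp also went with Erap1 (r = 0.733, rho = 0.821, permutation p = 3e-05 and 1e-05, adjusted p = 0.000349), with 0.541 and 0.724 within the sets and 0.622 without the 2 farthest clones. Within clones 1 to 13 alone the calls of Erap1 with Tap2 and with Tapbp were lost (permutation adjusted p = 0.0689 and 0.1505). Tap2 and Nlrc5 had r = 0.263 in monocytes, and -0.03 without clone 15.

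In progenitors H2-K1 and H2-D1 stayed closest (r = 0.959, rho = 0.938, both permutation p = 1e-05, adjusted p = 0.000167), with 0.983 and 0.948 within the sets, 0.947 without clones 11 and 24, and 0.917 with median-ratio scaling. These genes share sequence, which can raise their correlation in either state, and its part was not tested. Tap1 and Tap2 had r = 0.866, which was 0.404 with median-ratio scaling. For Nlrc5, whose progenitor levels are separate in the sets, r with Tap1 was 0.641 within clones 1 to 13 and 0.957 within clones 15 to 26, and with H2-K1 0.534 and 0.822. Of these 4 values only that with H2-K1 in clones 15 to 26 passed the permutation test within a set, narrowly (adjusted p = 0.0491). The others did not pass (permutation adjusted p from 0.0543 to 0.153). Over all clones r of Nlrc5 was 0.846 with Tap1 and 0.610 with H2-K1, and 0.781 and 0.006 with median-ratio scaling. That scaling was not run within a set. Within clones 15 to 26, progenitor clone 24 was the lowest in Tap1, H2-K1 and Nlrc5 alike.

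The genes nearest to each class I gene outside the 8 were named by the highest r, which chooses them for it, so no p is given. For Nlrc5 in monocytes these were Cd274, the checkpoint ligand PD-L1 (r = 0.952, 0.887 and 0.965 within the sets, 0.877 without clone 15), and Gbp6, a guanylate-binding protein (0.943, 0.861 and 0.976, 0.851 without clone 15). For monocyte H2-K1 they were H2-M3, a class Ib heavy chain (0.927, 0.872 without clone 15), and Papd7 (0.920). H2-D1 was nearest to the lipid transporter Abcg1 (0.928) and the lysosomal enzyme Hexa (0.922), B2m to Laptm4a (0.939) and Tmem65 (0.924), Tapbp to Tor1aip1 (0.935) and Usp12 (0.929), Tap2 to Man2a1 (0.917) and Cd164 (0.913), and Erap1 to Adam10 (0.956) and Srpr (0.956). For Tap1 they were Gm43802 (0.907, 0.680 without clone 15) and Fam26f (0.897, 0.663 without clone 15).

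In progenitors the nearest genes were Sigirr and Eif1ad for H2-K1, Itgb5 and Akap1 for H2-D1, Panx1 and Gtf2f2 for B2m, Rabep2 and Taf8 for Tap1, Ripor1 and Mcm7 for Tap2, Calm3 and Me2 for Tapbp, and Ywhae and Hsp90b1 for Erap1, with r from 0.873 to 0.964. With median-ratio scaling these r ran from 0.490 (H2-D1 with Akap1) to 0.940 (Erap1 with Hsp90b1), with no value for Eif1ad, Taf8 and Mcm7. All progenitor pairings had a median r of 0.5, and of 0.016 with that scaling. Nlrc5 was nearest to Mphosph8 (0.694 and 0.968 within the sets) and Tspoap1 (0.604 and 0.958).

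Interferon-stimulated genes followed 6 of the 8 genes over monocyte clones, and clone 15 carried much of it. Of these 20 genes, 5 of which pass the filter on mean TPM through clone 15 alone, 20 had a positive call with each of Nlrc5, H2-K1, H2-D1 and Tap1, 18 with Tapbp and 16 with B2m, beside the 23.6% of all pairings. Without clone 15 the numbers were 11 for Nlrc5, 12 for H2-K1, 8 for H2-D1, 4 for Tap1, 6 for Tapbp and 2 for B2m, beside 22%, so that Tap1 and B2m were at or below that share. For Tap2 and Erap1 it was 1 of 20 each, with and without clone 15. Of the 24 class I regulators, 4 had a positive call with H2-K1 in monocytes, beside 23.6% of all pairings. With Nlrc5 there were 6 positive calls and 1 negative. Without clone 15 the positive calls were 2 and 4, beside 22%, with 1 negative call each. These counts are not a result about the regulators. Among the regulators, Irf8 went with H2-K1 in monocytes (r = 0.763, rho = 0.670, permutation p = 1e-05 and 0.00049, adjusted p = 0.000167), with 0.692 and 0.851 within the sets, 0.803 without clone 15 and 0.721 without the 2 farthest clones. Irf8 and Nlrc5 had r = 0.648 (rho = 0.604, permutation p = 0.00070 and 0.00218, adjusted p = 0.00357), with 0.671 without clone 15 and 0.607 without the 2 farthest clones. Relb and Rfx5 passed with Nlrc5 (0.565 and 0.491), and neither did without clone 15 (0.401 and 0.222).

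Last, the design allowed the question whether a clone with a high level as a progenitor had a high level as a monocyte. None of the 8 genes passed, where 2.74% of 10473 genes did (two-sided permutation test, Benjamini-Hochberg over these genes). The highest values were those of Tapbp (r = 0.480, rho = 0.485, permutation p = 0.0176 and 0.0167, adjusted p = 0.196) and H2-K1 (r = 0.446, rho = 0.520, permutation p = 0.0288 and 0.0101, adjusted p = 0.251). Tapbp had 0.312 and 0.462 within the sets and 0.460 without clones 6 and 24, and it passed with median-ratio scaling (0.590, permutation adjusted p = 0.0345). For H2-K1 the values were 0.193 and 0.547 within the sets and 0.540 without clones 11 and 24. Tap2 was at -0.01, and the other 5 genes lay between 0.204 and 0.366. Clone 15 was the 1 clone that was highest in both states for H2-K1, Tap1 and Nlrc5.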

How the data were processed

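The authors deposited TPM in 1 table of 34643 gene symbols by 48 libraries. The submitters' processing notes name Salmon and the build mm10. The sources used here do not state versions, the annotation or how transcripts were summed to genes. Columns summed to 982949 to 999250, and depth is unknown. No libraries were identical (highest correlation 0.992), no column was left unmapped, and 26 rows named as calendar dates were left out.

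State changes were tested with limma 3.58.1 (R 4.3.3) on log2(TPM + 1), two-sided, with a mean-variance trend, for 11072 genes with a mean of at least 1 TPM, adjusted by Benjamini-Hochberg and called under 0.05. Clone was the block, since the design text matches cultures by clone. The deviations of a clone's libraries correlated above 0.1 in 18 of 24 clones, and in 12 with each set of clones centred. Correlations took genes whose SD was 0.25 or more and were tested by 100000 permutations. In addition to all 8 genes, the text names the 3 genes that changed most among those passing in a list. It also names the 2 genes with the highest r per class I gene and state, and some of the class I regulators that passed in the correlations. More regulators passed than are named, such as 14 with Tap2 in monocytes. The comparison of protein sequences in the design was not run. The values of 1 gene that this rule names are not reported here. Class I genes, lists and sets of clones were chosen with earlier results of these data known. The scripts' tests were tried on simulated data. Sequences are from RefSeq, coordinates and 31-base words from GENCODE M21. Alternatives changed the pseudocount (0.1 or 5), the filter, the scaling, the block, the trend and the clones included. The set comparison within states, and, for correlations, median-ratio scaling and leaving out clones 15 and 24, were added after the values were seen.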

Additional observations from a re-analysis of the deposited data

Results flagged for a closer look

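The state change of Nlrc5 was not the same in both sets of clones, with a difference of -1.89 on the log2 scale (clones 15 to 26 minus clones 1 to 13, SE 0.47, limma interaction adjusted p = 0.0118). Its mean went from 17.1 to 8.10 TPM in clones 15 to 26 (lower in 9 of 11, and from 15.6 to 3.63 TPM without clone 15) and from 2.23 to 3.17 TPM in clones 1 to 13 (higher in 10 of 13). It passed in each of the 6 alternatives run for this test, in which between 1122 and 2935 of all genes passed. Mitochondrial transcripts took a mean of 11.96% and 5.73% of progenitor TPM in these sets, and of 11.64% and 5.11% of monocyte TPM. With mitochondrial, Gm and pseudogene entries left out the difference was -1.98 (limma interaction adjusted p = 0.0135). Any further part of the mitochondrial share was not tested.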

How the results depend on the processing

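Tap1 and Tapbp kept their direction and their call in all 12 alternatives run for each, with log2 fold changes of -0.97 to -0.53 and 0.93 to 1.37. Without the replicate block 7436 genes passed in place of 7623, and 5 of the 8 class I genes were still called, 2 higher and 3 lower. Over all genes the split of 3584 higher and 4039 lower became 2943 and 4826 without mitochondrial, Gm and pseudogene entries, 4189 and 3577 in clones 1 to 13, and 1995 and 3058 (5053 in all) in clones 15 to 26, where fewer clones enter. Without any filter 4774 and 6152 genes passed. In clones 1 to 13 alone 3 class I genes were called, and Nlrc5 turned to 0.37. The sum of the heavy chain rows, which took the place of H2-K1 and H2-D1 in 1 alternative, had 0.27 and did not pass. It is a value of the sum and not of either gene, but the counts below take it as a reversal for H2-K1 and a lost call for H2-D1. The count of genes that differed between the sets, 1268, was 1967 with median-ratio scaling and 2935 without clones 19, 21, 24 and 26, and the cause was not tested. Across states 1 class I gene (Tapbp) passed with median-ratio scaling in place of 0. Of progenitor pairs, 20 by the design, 12 passed in clones 1 to 13, 6 with median-ratio scaling and 13 without clones 15 and 24. Of monocyte pairs, also 20, the numbers were 6, 13 and 10, and 11 without clone 15. The r of Tap1 and Nlrc5 in monocytes was -0.10 in clones 1 to 13. Differences between the sets that passed no test in the main comparison changed sign in 8 cases: in progenitors H2-K1 (-0.10) and H2-D1 (-0.021) with median-ratio scaling and B2m (0.11) and Erap1 (0.54) without clones 19, 21, 24 and 26, and in monocytes H2-K1 (-0.22), H2-D1 (-0.018) and B2m (-0.19) without clone 15 and Tap2 (0.022) without clones 19, 21, 24 and 26. Of 538 values under alternatives, 454 kept their call or stayed close, 18 lost a call, 13 gained one, 42 moved and 11 reversed. Without read depth in TPM the counting error is unknown, and sequence shared between heavy chain genes limits their single values.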

Other observations

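Genes of the lists that did not pass the filter for tests included a class I gene, class II pathway genes and an interferon-stimulated gene. H2-M2, a class Ib heavy chain gene, had a mean of 0.408 TPM in monocytes with 6.88 TPM in clone 15, and was listed at 0 in 20 of 48 libraries. The class II transactivator gene Ciita stayed at or below 0.172 TPM in every library, while H2-Aa reached 7.57 TPM and H2-Eb1 2.47 TPM in monocyte clone 15. The interferon-stimulated gene Ifi44 had 38.7 TPM there, and a mean of 1.81 TPM over all 24 monocytes.

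Monocyte clone 19 was the lowest monocyte in 7 of the 8 class I genes, all but Nlrc5, where clone 9 was lower (0.469 against 0.896 TPM). Its H2-K1 stood at 84.3 TPM, its B2m at 208 TPM and its Erap1 at 1.10 TPM. The mast cell and basophil markers summed to 2065 TPM in this library, the highest of the monocytes, against a median of 51.6 TPM, and their part in these levels was not tested. The ratio of H2-D1 to H2-K1 was higher in it than in its progenitor, as in every other clone.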
